A study of Mus musculus with 5 samples.

Results

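Tubular injury and repair markers are genes known to be induced in, or to mark, kidney tubule cells that are damaged or regenerating. A fixed list of 10 gene symbols was read from the counts of reads per gene in mouse cortical kidney tissue, namely *Havcr1*, *Lcn2*, *Krt8*, *Krt18*, *Krt20*, *Vcam1*, *Clu*, *Spp1*, *Cp* and *Sox9*. All 10 were present among the 24421 genes in the counts, and 9 passed the filter on low counts that left 13874 genes to test. *Krt20* did not pass it. The libraries analysed here come from 3 *Fnip1* null (*Fnip1*-/-) mice, numbered 8637, 9210 and 9121, and 2 wildtype (*Fnip1*+/+) mice, numbered 9055 and 9056, with 1 library per mouse. The study describes more wildtype mice than are analysed here. The number 9210 is that of the label, while the counts of this mouse were deposited under a number with transposed digits. All 5 were on the C57BL6J background, and no treatment is listed in the labels. The labels give no age, and by the range in weeks in the study's text the mice were adult. *Fnip1* encodes a partner of folliculin and of AMPK, and the null allele, made by chemical mutagenesis, is carried in every cell of the body, so a difference in the kidney cannot be assigned to loss of the gene in tubules. The study calls the control mice heterozygous in places, and the genotype in the labels is used here.

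Injured proximal tubule cells lose part of their transport program and switch on surface, secreted and cytoskeletal proteins that the resting tubule makes little of. *Havcr1*, which encodes KIM-1, a receptor for apoptotic cells, and *Lcn2*, which encodes the iron and siderophore carrier NGAL, are measured in this way as urinary markers of kidney injury. Keratins 8, 18 and 20 are intermediate filament proteins of simple epithelia, *Vcam1*, *Clu*, *Spp1* and *Cp* encode an adhesion molecule, a secreted chaperone, a secreted matrix protein and a copper-binding ferroxidase, and *Sox9* encodes a transcription factor of regenerating tubule cells.

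Reads counted on genes ran from 15799114 to 19132145 per mouse, and 3 counts in a mouse corresponded to 0.158 to 0.186 normalized CPM, the unit used below for a count scaled to library size with edgeR's TMM factors. *Fnip1* itself was at 21.0, 16.9 and 16.0 normalized CPM in null mice 8637, 9210 and 9121 against 51.8 and 48.7 in wildtype mice (log2 fold change -1.48 ± 0.14 SE, adjusted p = 0.0330). Null mouse 9121 stood apart from the other 4. It had 314 normalized CPM of *Xist*, the RNA of the inactive X chromosome, against 0.172 to 1.41 elsewhere, and no counts of the Y-linked genes *Ddx3y*, *Kdm5d* and *Uty*. *Eif2s3y*, also Y-linked, was at 0.370 in this mouse and at 27.5 to 45.1 in the others. This is the RNA pattern of a female, and that of the other 4 is of males, though the labels give no sex. Most results that rest on mouse 9121 are therefore given with and without it. The tissue expressed proximal tubule and distal nephron genes in every library. The sum of 22 proximal tubule genes was 27653 to 50780 normalized CPM in null and 67745 to 76653 in wildtype mice. Without mouse 9121 it was 31820 to 50780 in null mice. The largest value in this sum was that of *Kap* in every mouse, at 13588, 5428 and 4840 in null and 26754 and 29261 in wildtype mice. An RNA level of a whole tissue does not tell fewer cells of a type from less RNA per cell.

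None of the 9 markers tested passed an FDR of 5% with a 2-fold difference by edgeR's quasi-likelihood test, and adjusted p-values ran from 0.0506 to 0.584. The same rule called 0.526% of all genes tested, and the FDR alone, which no marker passed either, called 0.678%. At an unadjusted p under 0.05, 4 of the 9 passed, against 25.1% of all genes. With edgeR's exact test, 4 of the 9 were higher in *Fnip1* null tissue past the same thresholds, namely *Lcn2*, *Krt18*, *Spp1* and *Cp*, against 3.03% of all genes called higher, and the same number passed with the likelihood ratio test (3.44% of all genes) and with DESeq2 (2.64%). Without mouse 8637, 5 of the 9 passed the quasi-likelihood test against 6.57% of all genes, and without mouse 9121, 2 of the 9 against 0.995%. In *Lcn2*, *Krt18*, *Spp1* and *Cp* all null mice were above both wildtype mice, which was also true of 22.9% of all genes tested. The log2 fold change was positive in 8 of the 9 and at least 1 in 5, with a median of 1.08 against 0.0035 over all genes tested. The markers therefore split into *Lcn2*, *Krt18*, *Spp1* and *Cp*, whose groups were separate, *Krt20*, separate at very low counts, and *Havcr1*, *Vcam1*, *Clu*, *Sox9* and *Krt8*, whose groups overlapped.

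**Figure D1:**
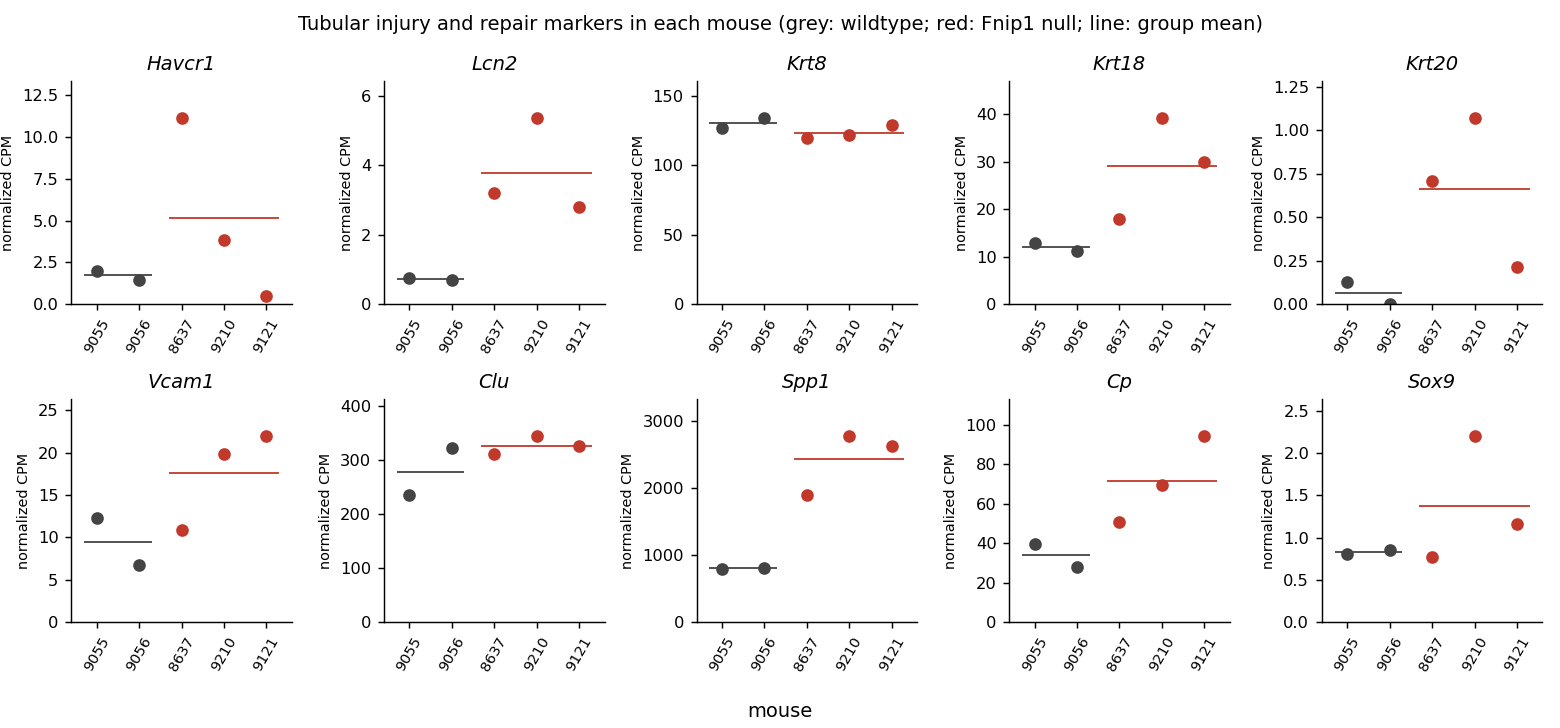
Normalized CPM of each of the 10 markers (vertical axes, from 0, on a scale of their own) in the wildtype mice (grey points) and *Fnip1* null mice (red points), named on the horizontal axes, with group means as lines. The red points of *Lcn2*, *Krt18*, *Krt20*, *Spp1* and *Cp* are all above the grey ones, while those of *Havcr1* run from 0.475 to 11.1.

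**Figure D2:**
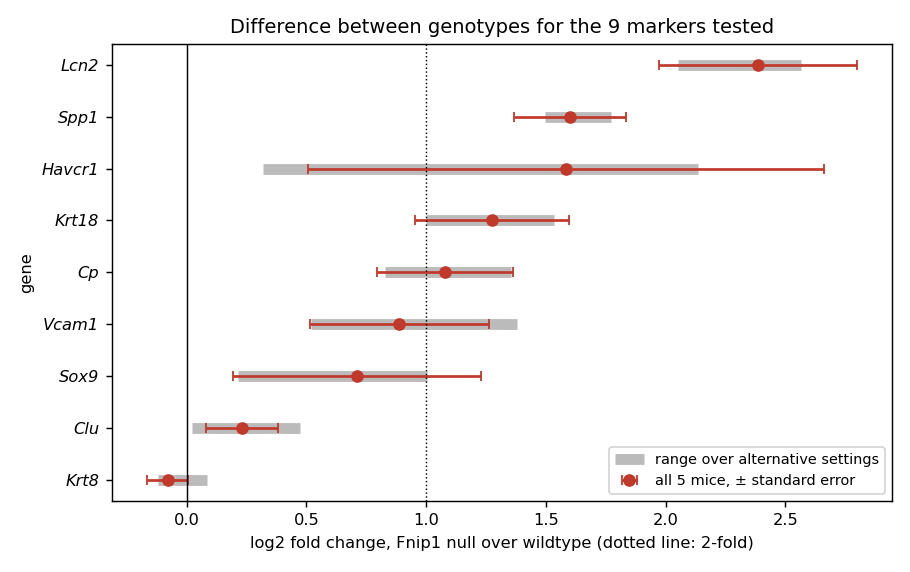
Log2 fold change of *Fnip1* null over wildtype (horizontal axis) for the 9 markers tested, as red points with standard errors, over grey bars that span the other tests, normalizations, filters and fits without 1 mouse. *Lcn2* has the largest value at 2.38 and *Krt8* the lowest at -0.08, and the bar of *Havcr1* is widest, from 0.32 to 2.14.

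The most abundant marker was *Spp1*, which encodes osteopontin, a phosphorylated matrix protein and cytokine that the distal nephron makes at rest. Its level was 1906, 2774 and 2636 normalized CPM in null mouse 8637, 9210 and 9121, and 794 and 813 in wildtype mouse 9055 and 9056. The lowest null mouse was thus above the highest wildtype mouse by more than the range within either genotype. The means were 2439 ± 467 (SD, n = 3) and 804 ± 13.3 (SD, n = 2), a log2 fold change of 1.60 ± 0.23 SE. The adjusted p of the quasi-likelihood test was 0.0506, just outside the threshold, and that of the exact test was 3.13e-08. Under 5 other settings of the quasi-likelihood fit (its legacy form, library size only, upper quartile normalization, no filter, and a minimum of 1 CPM in 3 mice) *Spp1* passed the threshold, with adjusted p-values from 0.0403 to 0.0499. It did not with RLE normalization (adjusted p = 0.0507). With 1 mouse left out, the log2 fold change was 1.76 without mouse 8637 (adjusted p = 0.00491) and 1.54 without mouse 9121 (adjusted p = 0.0437), and the test was not passed without mouse 9210, 9055 or 9056 (adjusted p = 0.194, 0.213 and 0.536). The exact test was passed without each of the 5 mice. The 18 genes of the loop of Henle and distal nephron that were measured beside it summed to 11523 to 16274 normalized CPM in null and 11172 to 11967 in wildtype mice. The largest value in the sum was that of *Umod*, at 5381, 5213 and 7918 in null and 5751 and 5214 in wildtype mice. Of the 18 genes, 14 had a positive log2 fold change, against 7009 of all 13874 genes, with a median of 0.44. All null mice were above both wildtype mice in 10 and below in 2, against 3179 and 3186 of all 13874 genes. Without mouse 9121 the sum of the 18 genes was 11523 to 12439 in null mice. Divided by that sum, *Spp1* was 0.165, 0.223 and 0.162 in the null mice against 0.0664 and 0.0728 in the wildtype mice, 2.64-fold higher on average (two-sided exact permutation test, p = 0.1, the smallest that 3 against 2 mice can give). *Spp1* lies on chromosome 5 at 104435118 to 104441050 (GRCm38, plus strand). A gene model on the same strand, *Gm42793*, overlaps it, and 9.05% of the 50-base stretches of its transcript also occur in that model. Whether the model was in the annotation used for counting is not given in the sources used here.

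*Lcn2* had the largest fold change of the 9. It was at 3.18, 5.35 and 2.80 normalized CPM in null mice 8637, 9210 and 9121 and at 0.746 and 0.686 in the wildtype mice, from 53 to 90 counts in a null mouse and 12 in each wildtype mouse. Every null mouse was thus well above both wildtype mice, and mouse 9210 was highest. The log2 fold change was 2.38 ± 0.41 SE, with an adjusted p of 0.0644 by the quasi-likelihood test and of 8.63e-05 by the exact test. It was 2.49 without mouse 8637 and 2.56 without mouse 9121, and then passed the quasi-likelihood test (adjusted p = 0.0193 and 0.0415). The adjusted p was 0.182, 0.219 and 0.536 without mouse 9210, 9055 and 9056, and the exact test was also not passed without mouse 9056 (adjusted p = 0.0861). Neutrophils store the protein in their granules, so 13 neutrophil genes were summed beside it. They came to 8.55 to 12.04 normalized CPM in null and 1.77 to 2.36 in wildtype mice. The granule genes *Mpo*, *Elane* and *Camp* had no counts in any mouse, and *Ly6g* was not in the counts. Another granule gene, *Ltf*, was at 0.648, 0.535 and 0.792 in null and 0.497 and 0.172 in wildtype mice. All 4 neutrophil genes tested had a positive log2 fold change, against 7009 of all 13874 genes. By the exact test 3 of the 4 were higher, with and without mouse 9121, against 421 and 327 of all 13874 genes. *S100a9*, an alarmin of neutrophils and monocytes, was 3.54, 4.10 and 3.91 in null and 0.311 and 0.286 in wildtype mice, and passed the quasi-likelihood test (log2 fold change 3.66 ± 0.31 SE, adjusted p = 0.0330). The ratio of *Lcn2* to the neutrophil sum was 0.372, 0.508 and 0.232 in the null mice and 0.316 and 0.387 in the wildtype mice, so that the groups overlapped (two-sided exact permutation test, p = 0.9). The part of neutrophils in the level of *Lcn2* was not tested.

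*Krt8* and *Krt18* encode the type II and type I keratins that pair in equal amounts in the filaments of simple epithelia, and their genes are neighbours on chromosome 15, separated by 23697 bases (*Krt8*, 101996698 to 102004482 on the minus strand, and *Krt18*, 102028180 to 102032027 on the plus strand, GRCm38). *Krt18* was at 17.9, 39.1 and 29.9 normalized CPM in null mice 8637, 9210 and 9121 and at 12.8 and 11.2 in the wildtype mice. Null mice were again all above wildtype mice, with mouse 8637 nearest to them. Its log2 fold change was 1.28 ± 0.32 SE, with an adjusted p of 0.10 by the quasi-likelihood test and 0.00660 by the exact test, and was 1.25 without mouse 9121 (quasi-likelihood adjusted p = 0.115). The exact test was not passed without mouse 9210, 9055 or 9056 (adjusted p = 0.0644, 0.120 and 0.448), while without mouse 8637 the quasi-likelihood test was passed (adjusted p = 0.00752).

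*Krt8* was at 119, 122 and 129 normalized CPM in the null mice and at 127 and 134 in the wildtype mice. The groups overlapped within a narrow range, and the log2 fold change was -0.08 ± 0.08 SE (adjusted p = 0.584). Its sign depended on the scaling, since it was 0.0867 when library size alone was used, a setting that moved the median of all genes to 0.17. The ratio of *Krt18* to *Krt8* within a library was 0.150, 0.322 and 0.232 in null and 0.101 and 0.0833 in wildtype mice, 2.55-fold higher on average (two-sided exact permutation test, p = 0.2). *Krt8* shares 29.7% of the 50-base stretches of its transcript with other genes, chiefly its pseudogene *Krt8-ps*, against 0.720% for *Krt18*, so its level is less certain. *Krt7* and *Krt19*, the other keratins of simple epithelia, were measured with this pair. *Krt7* was at 126, 192 and 157 in null and 91.9 and 92.0 in wildtype mice (log2 fold change 0.78 ± 0.18 SE, adjusted p = 0.0860), with all null mice above. *Krt19* was at 1.36, 2.26 and 5.17 in null and 1.37 and 0.286 in wildtype mice, and its groups overlapped (adjusted p = 0.207; log2 fold change 1.86, and 1.15 without mouse 9121).

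*Krt20*, a type I keratin of urothelium and gut that injured tubules can also make, had 12, 18 and 4 counts in null mouse 8637, 9210 and 9121, and 2 and 0 in wildtype mouse 9055 and 9056. These are 0.707, 1.07 and 0.211 normalized CPM against 0.124 and 0, so both wildtype mice were under 3 counts and null mouse 9121 was just over. The pooled ratio of 34 to 2 counts was 10.8, with a 95% exact interval of 2.77 to 93.0 that covers counting error only and not the spread between mice. Without mouse 9121 it was 14.9 (3.78 to 129). The urothelium list of 10 genes, which includes the uroplakins, summed to 4.89, 8.20 and 25.7 normalized CPM in the null mice and 8.01 and 2.17 in the wildtype mice, and was highest in mouse 9121, where *Krt20* was lowest of the null mice. *Krt20* divided by this sum was 0.145, 0.130 and 0.00821 in null and 0.0155 and 0 in wildtype mice (two-sided exact permutation test, p = 0.3). The groups overlapped because of mouse 9121.

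*Cp* encodes ceruloplasmin, an acute phase protein of liver that oxidizes iron and carries copper. It was at 50.7, 69.7 and 94.3 normalized CPM in null mice 8637, 9210 and 9121 and at 39.8 and 28.0 in the wildtype mice. The groups were separate, but the gap between mice 8637 and 9055 was smaller than the range within the null mice. The log2 fold change was 1.08 ± 0.28 SE, with an adjusted p of 0.104 by the quasi-likelihood test and 0.0100 by the exact test. Without mouse 9121, the highest, it was 0.83 (quasi-likelihood adjusted p = 0.102) and under the 2-fold limit. The exact test was not passed without mouse 9210 (adjusted p = 0.0679) or 9056 (adjusted p = 0.575), while without mouse 8637 the quasi-likelihood test was passed (adjusted p = 0.0155). The gene *Hps3* overlaps *Cp* on the opposite strand, and the strand setting of the counting is not given in the sources used here.

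The 250 bases upstream of the RefSeq transcript start (GRCm38.p6) are shown for the paired keratin genes, one with separate and one with overlapping groups, and for the other 3 markers that passed the exact test. Capitals mark matches to 2 motifs searched for, and the first start site in RefSeq is used except for *Cp*, where the second is shown because it holds 2 of them.
*Krt18*, chr15:102027966-102028215, plus strand: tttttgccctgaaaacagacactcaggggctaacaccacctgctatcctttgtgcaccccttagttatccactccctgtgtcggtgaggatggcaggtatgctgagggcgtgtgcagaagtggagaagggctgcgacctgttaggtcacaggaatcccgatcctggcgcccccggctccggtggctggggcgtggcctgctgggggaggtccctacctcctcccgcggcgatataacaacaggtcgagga
*Krt8*, chr15:102004343-102004592, minus strand: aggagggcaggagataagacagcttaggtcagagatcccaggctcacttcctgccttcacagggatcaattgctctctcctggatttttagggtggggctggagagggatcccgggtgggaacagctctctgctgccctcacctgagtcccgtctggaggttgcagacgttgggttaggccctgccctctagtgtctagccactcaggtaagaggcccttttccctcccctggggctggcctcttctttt
*Lcn2*, chr2:32387740-32387989, minus strand: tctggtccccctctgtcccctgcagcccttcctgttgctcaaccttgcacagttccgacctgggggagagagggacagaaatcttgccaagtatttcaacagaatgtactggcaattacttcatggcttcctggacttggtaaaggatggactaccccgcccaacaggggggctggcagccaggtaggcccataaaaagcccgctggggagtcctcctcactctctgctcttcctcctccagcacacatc
*Spp1*, chr5:104434861-104435110, plus strand: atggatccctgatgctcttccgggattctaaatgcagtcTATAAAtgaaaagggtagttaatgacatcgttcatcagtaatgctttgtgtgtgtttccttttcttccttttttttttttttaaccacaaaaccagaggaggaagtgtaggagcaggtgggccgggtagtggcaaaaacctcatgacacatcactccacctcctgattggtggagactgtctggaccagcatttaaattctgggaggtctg
*Cp*, chr3:19956999-19957248, plus strand: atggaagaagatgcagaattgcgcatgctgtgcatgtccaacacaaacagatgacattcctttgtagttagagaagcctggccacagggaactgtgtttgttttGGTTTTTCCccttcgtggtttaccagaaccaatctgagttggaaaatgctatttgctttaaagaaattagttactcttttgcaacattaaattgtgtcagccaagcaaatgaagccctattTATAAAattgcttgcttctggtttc

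Both strands were searched for an AP-1 motif (TGANTCA), an NF-kB motif (GGNNTTTCC) and a STAT motif (TTCNNNGAA), and the gene strand for a TATA box (TATAAA). These matched 6.75%, 4.93%, 7.02% and 7.59% of 32851 promoters of the same length. In the second promoter of *Cp*, GGTTTTTCC was an NF-kB match and TATAAA lay at -25 to -20 from the start. In *Spp1*, TATAAA lay at -211 to -206 from the start. In the windows not shown, *Krt20* had a TATAAA at -29 to -24 from its start, and the first start site of *Cp* had an AP-1 match, TGATTCA, at -177 to -171. No match to the 4 motifs was found in the windows of *Krt8*, *Krt18*, *Lcn2* and *Havcr1* or in the second start site of *Spp1*. Entries for *Vcam1*, *Clu* and *Sox9* were not used here, and a match is only a description of the letters.

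*Havcr1* varied most between null mice. It was at 11.1, 3.86 and 0.475 normalized CPM (189, 65 and 9 counts) in null mice 8637, 9210 and 9121 and at 1.99 and 1.43 in wildtype mice 9055 and 9056. Mouse 8637 was 23.4-fold above mouse 9121, which was below both wildtype mice, while mice 8637 and 9210 were above them. The log2 fold change was 1.58 ± 1.08 SE (quasi-likelihood adjusted p = 0.396; exact test adjusted p = 0.435). It was 2.14 without mouse 9121 (quasi-likelihood adjusted p = 0.0965), a setting in which the exact test passed with adjusted p = 0.00369, and 0.32 without mouse 8637 (quasi-likelihood adjusted p = 0.803). The mouse with the most *Havcr1* was the null mouse with the lowest *Krt8*, *Krt18*, *Vcam1*, *Clu*, *Spp1*, *Cp* and *Sox9*, and its sum of proximal tubule genes was the highest of the null mice, at 50780 normalized CPM against 31820 and 27653. In *Havcr1*, 5.30% of 50-base stretches are shared with the related gene *Timd2* and a pseudogene.

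*Vcam1* encodes an adhesion molecule for leukocytes, made by activated endothelium and by tubule cells that fail to repair. It was at 10.8, 19.9 and 21.9 normalized CPM in null mice 8637, 9210 and 9121, and at 12.2 and 6.75 in mice 9055 and 9056. Mouse 8637 lay between the wildtype mice, so the groups overlapped, with a log2 fold change of 0.89 ± 0.37 SE (adjusted p = 0.204). Without mouse 8637 it was 1.14 and passed the quasi-likelihood test (adjusted p = 0.0384), and without mouse 9121 it was 0.70 (adjusted p = 0.329). A list of 14 endothelial genes summed to 666 to 881 normalized CPM in null and 401 to 643 in wildtype mice. *Vcam1* divided by it was 0.0163, 0.0264 and 0.0249 in the null mice and 0.0190 and 0.0169 in the wildtype mice (two-sided exact permutation test, p = 0.4). The part of endothelial cells in its level was not tested. The receptor subunit genes *Itga4* and *Itgb7*, which leukocytes use to bind VCAM-1, were higher in all null mice, with log2 fold changes of 1.41 ± 0.39 SE (adjusted p = 0.110) and 1.37 ± 0.40 SE (adjusted p = 0.119). They passed the exact test, with adjusted p-values of 0.0202 and 0.0370, but not without mouse 9121, where they had the highest level (0.0529 and 0.0692). *Itgb1*, an integrin subunit gene listed with them as a partner of the markers, was nearly level, at 345, 339 and 346 in null and 336 and 318 in wildtype mice. Its log2 fold change was 0.07 (adjusted p = 0.648).

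*Clu*, which encodes the extracellular chaperone clusterin, was at 311, 343 and 326 normalized CPM in null mice 8637, 9210 and 9121 and at 235 and 321 in wildtype mice 9055 and 9056. The groups overlapped through mouse 8637, and the log2 fold change was 0.23 ± 0.15 SE (adjusted p = 0.373). The estimate ran from 0.02 without mouse 9055 to 0.47 without mouse 9056. *Sox9* was at 0.766, 2.20 and 1.16 in the null mice (13, 37 and 22 counts) and 0.808 and 0.858 in the wildtype mice. Mouse 9210 was highest, and mouse 8637 was below both wildtype mice, with a log2 fold change of 0.71 ± 0.52 SE (adjusted p = 0.425) that was 0.22 without mouse 9210.

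**Figure D3:**
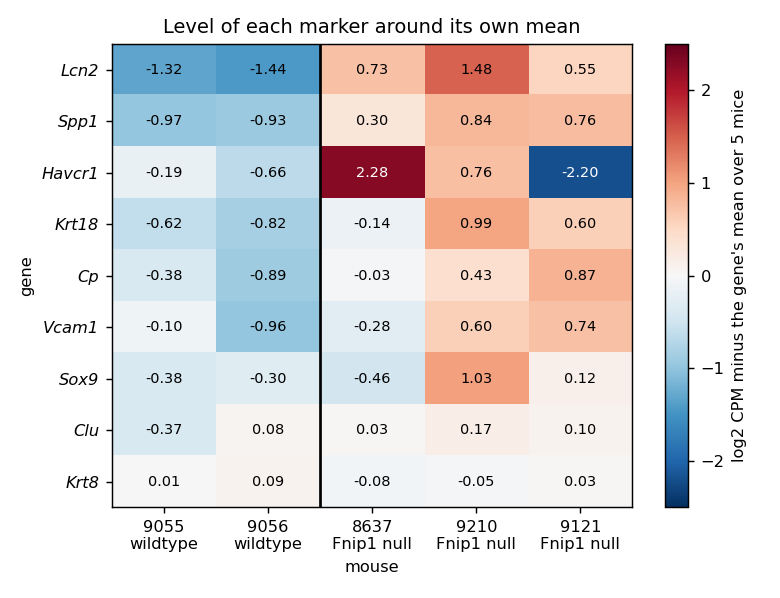
Log2 CPM of the 9 markers tested, minus each gene's mean over the 5 mice, with mice in columns (wildtype left of the line) and genes in rows, red above and blue below the mean. Mouse 9210 is above the mean in every row but *Krt8*, at -0.05, and *Havcr1* runs from 2.28 in mouse 8637 to -2.20 in mouse 9121.

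Across all 10 markers, mouse 9210 had the highest level of the 5 mice in 6, mouse 9121 in 2, mouse 8637 in 1 (*Havcr1*) and wildtype mouse 9056 in 1 (*Krt8*). Mouse 9210 was above both wildtype mice in 9 of the 10 markers, mouse 9121 in 8 and mouse 8637 in 6. The order of the null mice was therefore not the same from gene to gene.

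Levels of different genes were compared as normalized CPM per kilobase of exon, with all annotated exons of a gene merged. For *Cp* and *Vcam1* these cover 9566 and 8870 bases, against 4564 and 4088 in the longest transcript. The order and the overlaps below hold for this length only, and neighbours can change place with another. In wildtype tissue the order was *Spp1* (488), *Clu* (81.0), *Krt8* (66.5), *Krt18* (8.33), *Cp* (3.54), *Vcam1* (1.07), *Havcr1* (0.740), *Lcn2* (0.273), *Sox9* (0.201) and *Krt20* (0.0322). Of the 9 pairs of neighbours in this order, only the 2 wildtype values of *Vcam1* and *Havcr1* overlapped. In *Fnip1* null tissue *Spp1* was at 1480 per kilobase, and the pairs *Havcr1* and *Vcam1*, *Vcam1* and *Lcn2*, and *Krt20* and *Sox9* overlapped.

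**Figure D4:**
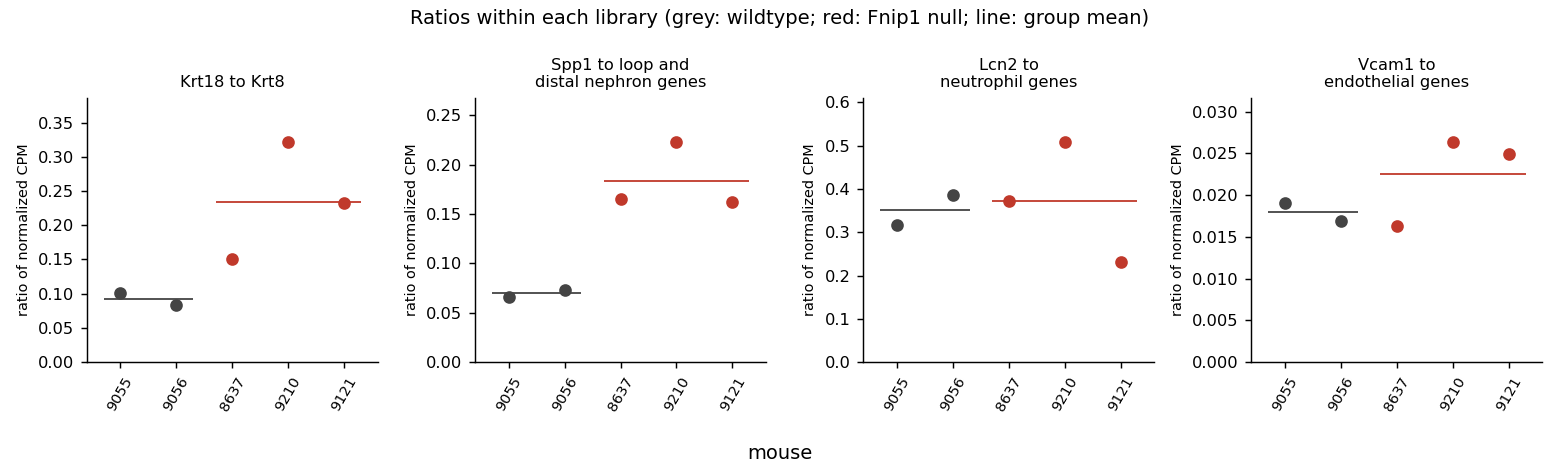
Ratio of a marker to another gene or to a summed gene list within each library (vertical axes, from 0, no unit) in the wildtype mice (grey) and *Fnip1* null mice (red), with group means as lines. The ratios of *Krt18* to *Krt8* and of *Spp1* to the distal nephron genes are higher in each null mouse than in both wildtype mice, while those of *Lcn2* to neutrophil genes and *Vcam1* to endothelial genes overlap.

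A wider list of 50 tubular injury and repair genes was measured with the 10 markers, and 43 were tested. By the quasi-likelihood test 1 was lower and none was higher at an FDR of 5% and 2-fold, and by the exact test 6 were higher and 1 was lower. Without mouse 9121 these counts were 1 lower and 1 higher (*Cdkn1a*, a cell cycle inhibitor, named after its value was seen) by the quasi-likelihood test, and 4 higher and 2 lower by the exact test. Over all 13874 genes tested, the quasi-likelihood test called 56 higher and 17 lower, and the exact test 421 higher (3.03%) and 144 lower. Without mouse 9121 these were 94 and 44, and 327 and 135. The log2 fold change was positive in 30 of the 43 and in 7009 of all 13874 genes. Its median was 0.54 in the list, against 0.0035 over all genes. The gene of the list that passed the quasi-likelihood test with all 5 mice was *Il34*, which encodes a ligand of the CSF1 receptor made by tubule cells. It was at 7.54, 7.25 and 8.71 normalized CPM in null mice and 23.6 and 25.1 in wildtype mice (log2 fold change -1.63 ± 0.13 SE, adjusted p = 0.0330), with a direction opposite to that of most injury genes listed. *C3*, which encodes the central complement component, was at 53.6, 111 and 76.5 in null and 33.2 and 10.3 in wildtype mice (log2 fold change 1.89 ± 0.54 SE, adjusted p = 0.114). The fibrinogen genes *Fgb* and *Fgg* were higher in all null mice, with log2 fold changes of 2.28 ± 0.76 SE (adjusted p = 0.143) and 1.59 ± 0.46 SE (adjusted p = 0.117). All 3 passed the exact test, with and without mouse 9121.

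Of 20 tested partners of the markers, such as receptors, proteases, iron handling genes and keratins, none passed the quasi-likelihood test. The exact test called 2 higher (none without mouse 9121), against 3.03% of all genes, and the median log2 fold change was 0.32. All null mice were above both wildtype mice in 12 of the 20, against 22.9% of all genes. They were below in 1, *Lrp2* (log2 fold change -0.59). *Cd44*, which encodes a receptor for osteopontin and hyaluronan, was at 2.77, 5.17 and 6.39 normalized CPM in null and 2.42 and 0.858 in wildtype mice, with all null mice above (log2 fold change 1.56, adjusted p = 0.146, and 1.29 without mouse 9121). Of 17 tested acute phase genes and targets of NF-kB, which share inducers with *Lcn2* and *Cp*, none passed the quasi-likelihood test. By the exact test 3 were higher (*Socs3*, *C3* and *Fgb*), against 3.03% of all genes. The log2 fold change was positive in 16, against 7009 of all 13874 genes, with a median of 0.74. *Socs3*, a feedback inhibitor of STAT3 signaling, was at 3.77, 3.69 and 5.49 in null and 2.17 and 2.06 in wildtype mice (adjusted p = 0.104), and did not pass the exact test without mouse 9121 (adjusted p = 0.110). *Il1b* and *Hp* were at or below 3.45 in every mouse, with adjusted p-values of 0.254 for both.

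Summed levels of several other lists, of cell types and of proliferation, were also higher in each null mouse than in both wildtype mice. The sums of T and B cell genes overlapped, at 6.78 to 17.7 normalized CPM in null and 3.72 to 7.33 in wildtype mice. Those of inner medulla and papilla genes also overlapped, at 2135 to 2484 and 2146 to 2266, as did the distal nephron and urothelium sums given above. The 16 macrophage and dendritic cell genes summed to 372 to 833 normalized CPM in null and 251 to 349 in wildtype mice. Of 15 tested genes, 10 were higher by the exact test (3.03% of all genes) and none by the quasi-likelihood test. Without mouse 9121 that sum was 372 to 475 in null mice. Then the exact test called 5 of the 15 higher, against 327 of all 13874 genes. The quasi-likelihood test called 1 higher (*C1qc*, named after its value was seen), against 94 of all genes. The largest values in the sum were those of *Cd74*, at 214, 279 and 528 in null and 197 and 120 in wildtype mice. *Csf1r*, the 1 tested gene that was lower in all null mice, was at 38.2, 36.4 and 63.9 against 72.4 and 68.4. The 12 fibroblast and mural cell genes summed to 386 to 722 against 224 to 357, the 16 proliferation genes to 113 to 177 against 91.7 to 99.4, and the 8 podocyte and parietal cell genes to 783 to 910 against 481 to 500. *Nphs1*, which encodes nephrin of the podocyte slit diaphragm, passed the quasi-likelihood test, with a log2 fold change of 1.08 ± 0.12 SE (adjusted p = 0.0354). The 7 adipocyte genes summed to 54.3, 357 and 167 in null mice 8637, 9210 and 9121 and to 36.7 and 36.1 in wildtype mice, highest in mouse 9210, which was also highest in 6 markers. Of 22 proximal tubule genes tested, 3 (*Slc5a2*, *Slc5a12* and *Gatm*) had a positive log2 fold change, against 7009 of all 13874 genes. By the exact test 3 were lower, against 144 of all 13874 genes, and the median log2 fold change was -0.34. The part of these cell types in the levels of the markers was not tested.

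Genes with the profile most like that of each marker were ranked by the root mean square difference of centred log2 CPM over the 5 mice, among 13264 genes. *Hif3a* was nearest to *Havcr1*, at 0.236 and with 7.07, 3.27 and 0.370 normalized CPM in the null mice and 2.11 and 1.14 in the wildtype mice, and *Zbtb16* followed at 0.691. *Havcr1* had 1 gene within 0.25 of its profile and *Lcn2* had 4, the nearest being *Adgrf1* (0.193) and *Slc9a4* (0.204). *Spp1* had 94, led by *Atp4a* (0.0545) and *Muc1* (0.0654), *Krt18* had 168, led by *Mgp* (0.0557) and *Sh2b2* (0.0746), and *Cp* had 501, led by *B4galnt1* (0.0246) and *Slamf9* (0.0485). *Sox9* had 48, led by *Cr2* (0.0953) and *Npy6r* (0.127), and *Vcam1* had 370, led by *Rgs19* (0.0604) and *Trpv2* (0.0638). The flat profiles of *Clu* and *Krt8* had 5371 and 8298 genes within the same distance, with *Zbtb12* and *F420014N23Rik* nearest to *Clu* and *Rdh14* and *Rfk* nearest to *Krt8*. These are descriptions of 5 libraries.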

How the data were processed

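RNA was purified from frozen cortical kidney tissue and sequenced as paired 50-base reads. The authors filtered low quality reads, aligned them to UCSC mm10 with TopHat 2.1.0 and counted them with HTSeq 0.6.1. The deposited values are raw counts per gene symbol, without normalization. Reads aligned to several places (28.3% to 31.4% of records per mouse) or to several genes were not counted. The gene annotation used for counting is not given in the sources used here.

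Counts were analysed with edgeR 4.0.16 in R 4.3.3. A gene was removed when more than 2 mice had fewer than 10 counts. Libraries were normalized by TMM, with factors from 0.914 to 1.09, and the genotypes were compared by the quasi-likelihood test with Benjamini-Hochberg adjustment over the 13874 genes. Adjusted p-values come from this test unless another is named. Differential expression meant an FDR of 5% and at least 2-fold. The alternatives were edgeR's exact, likelihood ratio and legacy quasi-likelihood tests, DESeq2 1.42.0, other normalizations and filters, and leaving out each mouse. The exact test without each mouse, and the lists without mouse 9121, were added after seeing the data. Coordinates come from GENCODE M21 on GRCm38, matched by symbol. RefSeq promoters were matched by symbol for 7 of the 10 markers. The labels number single mice, and the mouse was the unit of each test. The p-values of edgeR and DESeq2 set the difference between genotypes against the spread between mice, which is estimated in part from other genes.

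The markers and gene lists were chosen with earlier results of these data known. Named genes are the 10 markers, members of other lists past the FDR and 2-fold limits, the 5 with the largest change and a mean of at least 1 CPM in the injury, partner and acute phase lists, leading genes of cell type lists, and the 2 nearest profiles of each marker. Not every gene that meets this rule is reported here. *Kdm5d*, *Mpo*, *Elane* and *Camp*, and other genes given only as a check of a library or a list, were named after their values were seen.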

Additional observations from a re-analysis of the deposited data

How the results depend on the processing

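The count of markers past an FDR of 5% and 2-fold depended on the test. It was 0 with edgeR's quasi-likelihood test, and 4 with edgeR's exact and likelihood ratio tests and with DESeq2. It was 1 (*Spp1*) with the legacy quasi-likelihood fit, library size only, upper quartile normalization, no filter and the filter of at least 1 CPM. With 1 mouse left out it ran from 0 to 5, over the quasi-likelihood and exact tests. By the quasi-likelihood test it was 5 without mouse 8637 (*Vcam1* joined *Lcn2*, *Krt18*, *Spp1* and *Cp*), 2 without mouse 9121, and 0 without mouse 9210, 9055 or 9056. By the exact test it was 5 without mouse 8637, 4 without 9121, 3 without 9055, 2 without 9210 and 1 without 9056. Over all genes tested, the count of 73 became 565 with the exact test, 628 with the likelihood ratio test and 487 with DESeq2, and ran from 0 (without mouse 9210, 9055 or 9056) to 1206 (the exact test without mouse 8637) with 1 mouse left out. By the quasi-likelihood test it was 911 without mouse 8637 and 138 without mouse 9121, and by the exact test 462 without mouse 9121, 444 without 9055, 257 without 9210 and 132 without 9056. Tested markers with all null mice above the wildtype mice numbered 4, and 4 to 7 with 1 mouse left out. Fewer mice are separate more easily, and the share over all genes was found only with all 5 mice (22.9%). The range with 1 mouse left out therefore cannot show stronger separation. The log2 fold change of *Krt8* was 0.0867 with library size only in place of -0.08. The mean ratio of *Lcn2* to neutrophil genes, 1.06-fold that of wildtype, ran from 0.861 to 1.25 with 1 mouse left out, and was 0.861 without mouse 9210 and 0.959 without mouse 9055. The causes were not tested. No other marker changed direction under the settings run.

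Leaving out a wildtype mouse leaves 1, assumed to vary like the null mice. Ratios with *Krt20* have no value without mouse 9055, since mouse 9056 had no count, and *Sox9* was not tested with the filter of at least 1 CPM. No paired analysis was possible because the genotypes share no mouse numbers. At this depth *Krt20* in wildtype mice could not be told from 0.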
